A study of Homo sapiens with 4 samples.

Results

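Bile acid synthesis and its control by the farnesoid X receptor (FXR) were followed in HepG2 cells through 10 genes, out of 58302 genes listed in each library. The genes were taken by name, with earlier results of these data known. They were the receptor FXR itself (NR1H4), the repressor NR0B2 (also called SHP), the enzymes CYP7A1, CYP8B1, CYP27A1 and CYP7B1, the hormone FGF19 and its receptor FGFR4, and the bile acid transporters ABCB11 and SLC10A1. HepG2 is a human liver tumor cell line, which the study describes as hepatocellular carcinoma, and the cells were of WT genotype. Cells received melatonin at 1 mM or DMSO, the control treatment, for 24 h or for 48 h, and mRNA-seq was performed on 1 library for each of the 4 conditions. With 1 library per condition there was no spread between cultures to compare a difference with, so all intervals given here cover counting error only.

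Bile acids are made from cholesterol in hepatocytes. The classic route starts with CYP7A1, and the alternative route with CYP27A1 and CYP7B1, while CYP8B1 steers the product towards cholic acid. Bile acids bind FXR, which pairs with RXRA and switches on NR0B2, and NR0B2 in turn holds back CYP7A1 and CYP8B1. In the gut FXR also switches on FGF19, a hormone that acts on the liver through FGFR4 and its co-receptor KLB to lower CYP7A1. ABCB11 exports bile salts into bile and SLC10A1 takes them up from the blood.

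The libraries held between 21616676 and 23086025 reads on genes, and mitochondrial genes took 20.0% (DMSO) and 16.6% (melatonin) of these reads at 24 h and 9.77% (DMSO) and 11.9% (melatonin) at 48 h. With mitochondrial genes left out and the rest rescaled to TPM, a unit with the same total in every library, the log2 fold change of NR0B2 was 1.04 at 24 h and that of NR1H4 was -1.62 at 48 h, beside 1.03 and -1.52 on the deposited scale. Of 11 hepatocyte markers 11 had an FPKM of at least 1 in every library, and their summed FPKM was 7437 to 9416. Some of them differed between the 48 h libraries, where AFP was at 1902 (DMSO) and 782 (melatonin), TF at 740 and 388, FOXA2 at 31.9 and 15.5, and TTR at 50.6 and 256. FPKM counts fragments per kilobase of a gene and scales them to the library size. Of 16 markers of other cell types 12 were under an FPKM of 1 in every library, and CD3E, COL3A1 and SI had 0 reads in all of them. The summed FPKM of these 16 markers was 69.8 to 120, most of it from VIL1 (51.0 and 42.5 at 24 h, 59.0 and 41.2 at 48 h for DMSO and melatonin) and KRT19 (62.1 and 33.2, 34.5 and 18.8). The part of these markers in the results was not tested.

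The 10 genes fell into a well expressed and a barely expressed set. FGFR4, CYP27A1, NR0B2 and NR1H4 had an FPKM of at least 1 in every library, with mean FPKM over the 4 libraries of 96.4, 74.7, 56.5 and 9.22. In that order the counting intervals of neighbouring genes overlapped in 0 libraries, but with melatonin for 48 h NR0B2 (76.4) stood above CYP27A1 (51.4) and overlapped FGFR4 (76.7). The other 6 genes stayed under an FPKM of 1 in every library. CYP8B1 had a mean FPKM of 0.411, SLC10A1 of 0.254, CYP7B1 of 0.106, CYP7A1 of 0.0776 and FGF19 of 0.0712, and ABCB11 had 0 reads throughout. CYP8B1 and SLC10A1 had overlapping intervals in 1 library (melatonin 24 h), and with melatonin for 48 h their order was reversed, with SLC10A1 at 0.418 (0.251 to 0.652) and CYP8B1 at 0.0507 (0.0165 to 0.118). Neighbours among SLC10A1, CYP7B1, CYP7A1 and FGF19 could not be placed in order, since their intervals overlapped in all 4 libraries. Some pairs further apart were clear of each other in single libraries. With melatonin for 48 h SLC10A1 lay above CYP7A1 (up to 0.110) and FGF19 (up to 0.0679). FGF19 lay above CYP7B1 with DMSO for 48 h and below it with melatonin for 48 h. The first step of the classic route and the bile salt export pump were close to or under the detection limit in these cells, whereas the first enzyme of the alternative route was among the highest of the set.

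**Figure D1:**
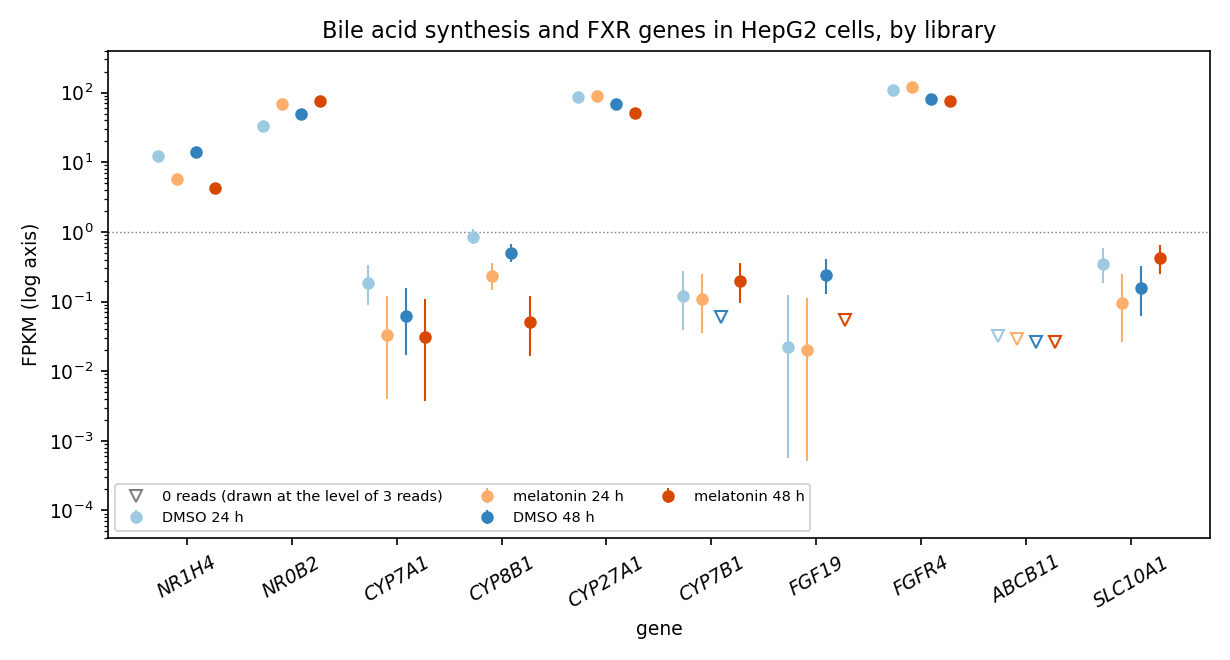
Level of each of the 10 genes in each of the 4 HepG2 libraries, as FPKM on a log axis, with bars for the 95% Poisson interval of the reads. Open triangles mark 0 reads and are drawn at the level of 3 reads. NR0B2 lies higher and NR1H4 lower in both melatonin libraries than in both DMSO libraries, and 6 genes lie under the dotted line at an FPKM of 1.

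With melatonin the gene for FXR was lower and the gene for its target repressor was higher at both times, and each passed the threshold for a change, given further on, at 1 of them. NR1H4 (ENSG00000012504; chromosome 12, 100473708 to 100564413, plus strand, hg38) had an FPKM of 12.4 (DMSO) and 5.84 (melatonin) at 24 h, and of 14.3 (DMSO) and 4.33 (melatonin) at 48 h. Both melatonin libraries lay below both DMSO libraries, and the interval of each melatonin library (5.29 to 6.44 and 3.88 to 4.83) ended below those of the DMSO libraries (11.6 to 13.3 and 13.4 to 15.1). These values rested on 790, 410, 1083 and 333 reads (24 h DMSO, 24 h melatonin, 48 h DMSO, 48 h melatonin). The FPKM of NR1H4 was 2.13-fold lower with melatonin at 24 h (95% interval 1.89 to 2.40) and 3.29-fold lower at 48 h (2.91 to 3.73). Fewer cells that express a gene and less RNA per cell cannot be told apart in bulk libraries.

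NR0B2 (ENSG00000131910; chromosome 1, 26911489 to 26913966, minus strand, hg38) is an orphan receptor without a DNA-binding domain that represses other nuclear receptors. Its FPKM was 32.7 (DMSO) and 67.7 (melatonin) at 24 h, and 49.1 (DMSO) and 76.4 (melatonin) at 48 h, from 694, 1588, 1244 and 1961 reads. Both melatonin libraries lay above both DMSO libraries, and the DMSO 48 h library was above the DMSO 24 h library. With melatonin the FPKM was 2.07-fold higher at 24 h (1.89 to 2.27) and 1.56-fold higher at 48 h (1.45 to 1.67). The gene lies within the span of NUDC on the opposite strand, with 0 exon bases shared in GENCODE 44, and NUDC had between 3279 and 3736 reads in each library. Whether the counting used strand is not given in the sources used here.

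The FPKM of NR0B2 divided by that of NR1H4 showed the divergence in 1 value per library. At 24 h the ratio was 2.63 in the DMSO library (2.37 to 2.92) and 11.6 in the melatonin library (10.4 to 13.0). At 48 h it was 3.44 (3.17 to 3.73) and 17.6 (15.7 to 19.9), respectively. The repressor transcript therefore stood higher over the receptor transcript in both melatonin libraries, with intervals that did not overlap those of the DMSO libraries. The ratio restates the values of NR0B2 and NR1H4 given above and adds no separate measurement. How often other gene pairs separate in this way was not counted.

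Genes were counted as changed when log2((FPKM + 1)/(FPKM + 1)) was at least 1 or at most -1, a 2-fold threshold, among genes that reached an FPKM of 1 in one or both libraries. By this rule 4 of the 10 genes could be tested in each comparison, so the other 6 could not be called. With melatonin at 24 h 1 of the 4 rose, NR0B2 with a log2 fold change of 1.03, where 1.42% of the 13582 genes tested rose. None of the 4 fell at 24 h, where 2.93% of all genes fell, and NR1H4 had a log2 fold change of -0.97. At 48 h 0 of the 4 rose (2.39% of 13805 genes) and 1 fell (3.32%), NR1H4 with a log2 fold change of -1.52, while NR0B2 had 0.63. Among protein-coding genes alone the calls were scarcer, with 20 higher and 46 lower of 10481 at 24 h, and 109 higher and 144 lower of 10582 at 48 h. The median log2 fold change of the 4 genes was 0.08 at 24 h and -0.26 at 48 h, beside 0.02 and -0.02 over all genes tested. A gene near the filter can pass it through the library where it is high, so signs and medians of the longer lists were taken over genes with a mean FPKM of at least 1 over the 4 libraries, a choice made after seeing the data. Over the 12786 such genes the median was 0.03 at 24 h and -0.01 at 48 h, and 45.9% and 51.9% had negative values.

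Both melatonin libraries lay above both DMSO libraries for NR0B2, as for 18.1% of the 14612 genes that reached an FPKM of 1 in any library. They lay below both for NR1H4, as for 18.5% of those genes. FGFR4 and CYP27A1 overlapped between the treatments.

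**Figure D2:**
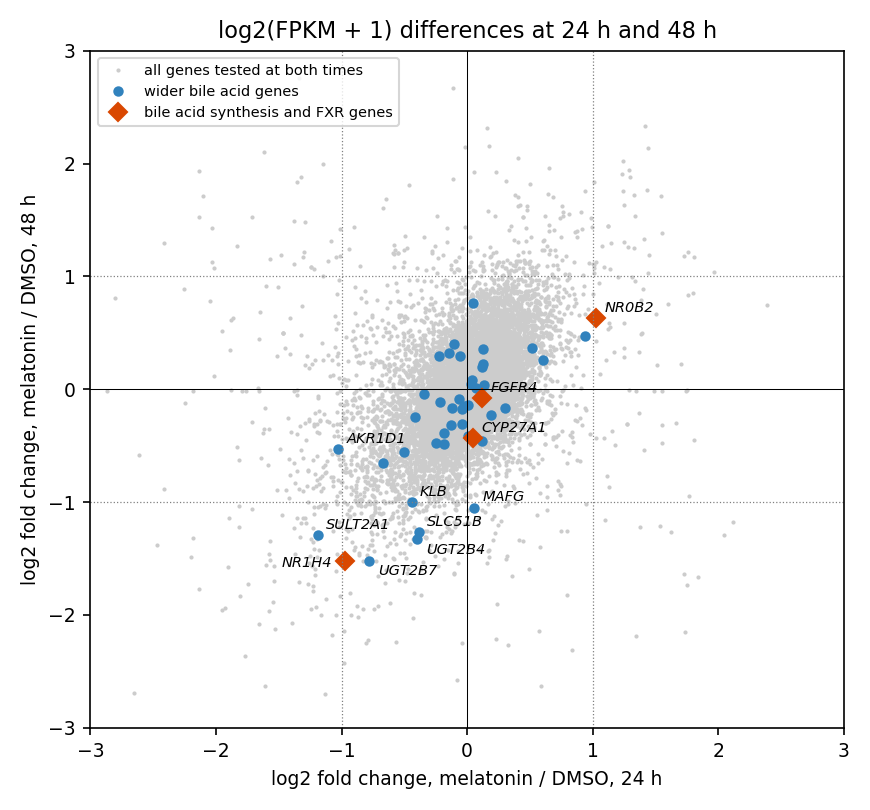
Log2 fold change of melatonin against DMSO at 24 h (x axis) and at 48 h (y axis), on the log2(FPKM + 1) scale, for the 12775 genes tested at both times, of which 4 lie outside the plotted range. Dotted lines mark the 2-fold threshold. NR0B2 lies past the threshold at 24 h only, NR1H4 lies past it at 48 h and just short of it at 24 h, and FGFR4 and CYP27A1 lie near 0 at 24 h.

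A promoter entry was found for 5 of the 10 genes in the RefSeq table (GRCh38.p14), namely ABCB11, CYP27A1, FGFR4, NR1H4 and SLC10A1. The 250 bases before each start were searched on both strands for the nuclear receptor core motif AGGTCA and for the inverted repeat of it with 1 base between, AGGTCANTGACCT, which FXR with RXRA is known to bind. The core motif lies within the inverted repeat, so the searches overlap. Of 35116 promoters 12.1% held the core motif, 0 held the exact inverted repeat and 0.945% held it with up to 2 mismatches. Among the 5 genes NR1H4 and SLC10A1 held the core motif, and ABCB11 and SLC10A1 held the inverted repeat with up to 2 mismatches. The window of NR1H4 is shown, 5′ to 3′, because NR1H4 was the gene of the set that fell. It covers chr12:100503110-100503359 on the plus strand, before a RefSeq start that lies within the span of the gene as listed in the files, with the core motif on the opposite strand in capitals, 230 to 225 bases before that start.
NR1H4: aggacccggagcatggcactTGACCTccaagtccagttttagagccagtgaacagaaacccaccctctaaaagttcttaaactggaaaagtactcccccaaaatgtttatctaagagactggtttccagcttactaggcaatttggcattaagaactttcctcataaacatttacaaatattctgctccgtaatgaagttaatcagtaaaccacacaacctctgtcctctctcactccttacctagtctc

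Among the partners of these receptors RXRA was lower with melatonin at both times, whereas HNF4A was higher at 48 h. RXRA, the dimer partner of FXR, had an FPKM of 12.9 (DMSO) and 8.81 (melatonin) at 24 h, and of 14.1 and 9.29 at 48 h. Both melatonin libraries lay below both DMSO libraries, as for 18.5% of genes that reached an FPKM of 1 in any library. The log2 fold changes of RXRA were -0.50 and -0.55 and did not reach the threshold. NR5A2, which drives CYP7A1 and CYP8B1 and is a target of repression by NR0B2, was listed at 0.389, 0.241, 0.495 and 0.322 (24 h DMSO, 24 h melatonin, 48 h DMSO, 48 h melatonin), under an FPKM of 1 throughout. HNF4A, a main hepatocyte factor that also drives CYP7A1 and CYP8B1, was at 59.5, 53.7, 34.9 and 43.8 in the same order. Its DMSO libraries were the highest and the lowest of the 4, and its difference at 24 h changed sign when the values were rescaled to TPM (log2 fold change -0.14 as deposited, 0.03 rescaled). At 48 h HNF4A had a ratio of melatonin to DMSO of 1.26, under the threshold.

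Of the 18 nuclear receptors and cofactors of bile acid control, a list that includes NR1H4 and NR0B2, 15 could be tested at each time. At 24 h 1 rose (NR0B2) and 0 fell, beside 1.42% and 2.93% of all genes tested. At 48 h 0 rose and 2 fell (NR1H4 and MAFG), beside 2.39% and 3.32%. Over the 15 with a mean FPKM of at least 1 the median log2 fold change was 0.06 at 24 h and 0.01 at 48 h. Over all genes by that filter it was 0.03 and -0.01. MAFG, a small transcription factor that FXR switches on and that represses CYP8B1, had an FPKM of 17.8 (DMSO) and 18.6 (melatonin) at 24 h, and of 40.0 (DMSO) and 18.8 (melatonin) at 48 h. Here 3 libraries lay close together and the DMSO 48 h library stood apart, so the fall at 48 h (log2 fold change -1.05) and the rise from DMSO 24 h to DMSO 48 h (1.12) share that library. MAFG shares 105 exon bases with SIRT7 on the same strand in GENCODE 44, and reads there could belong to either gene.

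Among the synthesis enzymes of the set the abundant CYP27A1 differed little at 24 h and was lower with melatonin at 48 h, short of the threshold. The scarce CYP8B1 was lower with melatonin at both times. CYP27A1 (ENSG00000135929; chromosome 2, 218781749 to 218815293, plus strand, hg38), the mitochondrial sterol hydroxylase, had an FPKM of 87.2 (DMSO) and 90.4 (melatonin) at 24 h, and of 69.8 (DMSO) and 51.4 (melatonin) at 48 h. The 24 h libraries were the higher pair and the melatonin 48 h library was the lowest. The ratio of melatonin to DMSO was 1.04 at 24 h (0.996 to 1.08) and 0.736 at 48 h (0.704 to 0.770), neither of which reached the threshold.

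CYP8B1 (ENSG00000180432; chromosome 3, 42856005 to 42876165, minus strand, hg38), the sterol 12-alpha-hydroxylase, was counted with 70 reads (DMSO) and 21 reads (melatonin) at 24 h, and with 49 and 5 reads, respectively, at 48 h. Its FPKM was 0.859, 0.233, 0.503 and 0.0507 in that order, and both melatonin libraries lay below both DMSO libraries. The share of all genes with this order was taken over genes that reached an FPKM of 1, so it does not cover CYP8B1. The FPKM was 3.68-fold lower with melatonin at 24 h (2.23 to 6.32) and 9.92-fold lower at 48 h (3.98 to 31.9). On the log2(FPKM + 1) scale, which compresses low values, the differences were -0.59 and -0.52, and the gene was not among those tested. CYP8B1 shares 142 exon bases in GENCODE 44 with ACKR2 on the opposite strand, which had between 16 and 25 reads per library.

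CYP7A1 (ENSG00000167910), the rate-limiting enzyme of the classic route, was counted with 10 reads (DMSO) and 2 reads (melatonin) at 24 h, and with 4 and 2 reads, respectively, at 48 h. The ratio of FPKM was 0.181 at 24 h with a wide interval (0.0193 to 0.849) and 0.494 at 48 h with an interval that spanned 1 (0.0447 to 3.45). At this depth no difference in CYP7A1 was detectable at 48 h. CYP7B1 (ENSG00000172817), the oxysterol 7-alpha-hydroxylase of the alternative route, had 5 reads in each 24 h library, and at 48 h 0 (DMSO) and 10 (melatonin). Against a floor of 3 reads in the DMSO 48 h library, CYP7B1 was at least 3.29-fold higher with melatonin at 48 h, a value that leaves out the counting error of the 10 reads. The 95% interval of the ratio began at 2.21.

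The wider list of bile acid synthesis enzymes held 16 genes, these 4 among them, of which 8 could be tested at 24 h and 9 at 48 h. None rose at either time, 1 fell at 24 h (AKR1D1) and 0 fell at 48 h. Of all genes tested 1.42% rose and 2.93% fell at 24 h, and 2.39% rose and 3.32% fell at 48 h. Over the 8 with a mean FPKM of at least 1 the median log2 fold changes were -0.05 and -0.08. Over all genes by that filter they were 0.03 and -0.01. AKR1D1, the steroid 5-beta-reductase that acts on the intermediates of both routes, had an FPKM of 6.09 (DMSO) and 2.49 (melatonin) at 24 h, and of 2.57 and 1.47 at 48 h. The DMSO 24 h library was the high one, and the log2 fold changes with melatonin were -1.02 at 24 h and -0.53 at 48 h. The 24 h value fell short of the threshold when library sizes were the plain sum of reads (-0.95). HSD3B7, which follows the 7-alpha-hydroxylases, was at 5.22, 3.89, 2.52 and 2.42 FPKM (24 h DMSO, 24 h melatonin, 48 h DMSO, 48 h melatonin). AMACR, a racemase of side-chain shortening, was at 0.833, 0.591, 1.49 and 0.884 FPKM in that order. Neither reached the threshold with melatonin at either time.

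**Figure D3:**
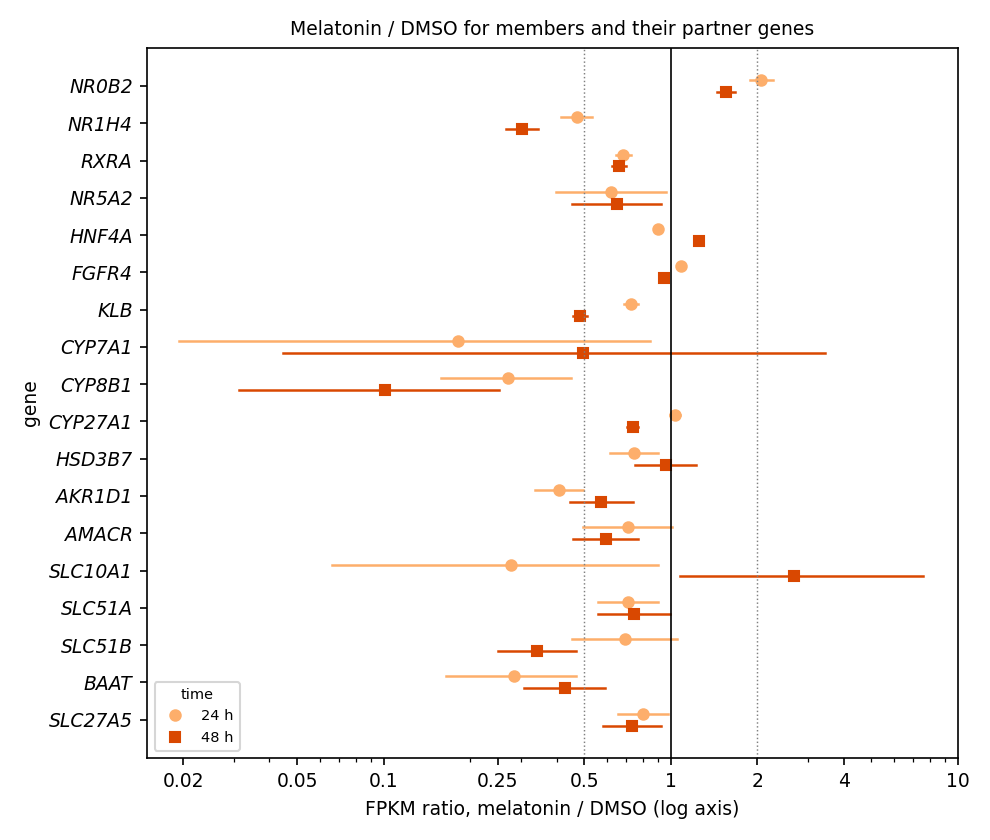
Ratio of FPKM with melatonin to FPKM with DMSO, on a log axis, for genes of the set and their partner genes at 24 h (circles) and at 48 h (squares), with bars for 95% counting intervals. Dotted lines mark 2-fold differences. NR0B2 lies to the right of 1 at both times, NR1H4 and CYP8B1 lie to the left at both times, and the scarce CYP7A1 and SLC10A1 have wide bars.

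The receptor of the FGF19 axis was abundant and its ligand nearly absent. FGFR4 (ENSG00000160867; chromosome 5, 177086886 to 177098144, plus strand, hg38) had an FPKM of 109 (DMSO) and 119 (melatonin) at 24 h, and of 81.0 (DMSO) and 76.7 (melatonin) at 48 h. The 24 h libraries were both higher than the 48 h libraries. The ratio of melatonin to DMSO was 1.09 at 24 h (1.06 to 1.12) and 0.946 at 48 h (0.918 to 0.976), and neither reached the threshold. FGF19 (ENSG00000162344; chromosome 11, 69698232 to 69704642, minus strand, hg38) had 1 read in each 24 h library, 13 in the DMSO library and 0 in the melatonin library at 48 h. The DMSO 48 h library alone held more than 1 read, and against a floor of 3 reads FGF19 was at least 4.39-fold lower with melatonin at 48 h, which leaves out the counting error of the 13 reads. The 95% interval of the fold began at 3.09.

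KLB, the co-receptor that FGF19 needs to act on FGFR4, had an FPKM of 27.6 (DMSO) and 20.0 (melatonin) at 24 h, and of 30.2 (DMSO) and 14.6 (melatonin) at 48 h. Again both melatonin libraries lay below both DMSO libraries, as for 18.5% of genes that reached an FPKM of 1 in any library. KLB fell at 48 h, barely past the threshold and short of it under some scalings (log2 fold change -1.09 to -0.97), where its FPKM was 2.07-fold lower by plain ratio (1.96 to 2.18), and had a log2 fold change of -0.44 at 24 h. Of the 9 genes listed for FGF19 signaling 5 could be tested at each time. At 24 h 0 rose and 0 fell, beside 1.42% and 2.93% of all genes tested. At 48 h 0 rose and 1 fell, beside 2.39% and 3.32%. Over the 5 with a mean FPKM of at least 1 the median log2 fold changes were 0.12 and -0.17. Over all genes by that filter they were 0.03 and -0.01.

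The bile acid transporters of the set were at or near the detection limit. ABCB11 (ENSG00000073734; chromosome 2, 168922938 to 169031322, minus strand, hg38) had 0 reads in every library, which by a floor of 3 reads allows an FPKM of up to 0.0317 in the library with the highest limit (DMSO 24 h) and up to 0.0262 in that with the lowest (melatonin 48 h). The upper ends of the 95% Poisson intervals were 0.0390 and 0.0323. SLC10A1 (ENSG00000100652; chromosome 14, 69775417 to 69797289, minus strand, hg38) was counted with 13 reads (DMSO) and 4 reads (melatonin) at 24 h, and with 7 and 19 reads, respectively, at 48 h. The treatments overlapped, since the melatonin libraries were the lowest and the highest of the 4. The ratio of FPKM was 0.278 at 24 h (0.0661 to 0.901) and 2.68 at 48 h (1.08 to 7.55).

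Among 15 bile acid and bile lipid transporters 9 could be tested at 24 h and 8 at 48 h. None rose, and 1 fell at 48 h (SLC51B). Of all genes tested 1.42% rose and 2.93% fell at 24 h, and 2.39% rose and 3.32% fell at 48 h. Over the 9 with a mean FPKM of at least 1 the median log2 fold changes were -0.11 and -0.19. Over all genes by that filter they were 0.03 and -0.01. SLC51A and SLC51B together encode the basolateral bile acid exporter, and both are known targets of FXR. SLC51B had an FPKM of 3.19 (DMSO) and 2.20 (melatonin) at 24 h, and of 7.96 (DMSO) and 2.73 (melatonin) at 48 h. At 24 h these values rested on 55 and 42 reads, and the interval of the ratio spanned 1 (0.691, 0.451 to 1.05). The pair of melatonin libraries lay below both DMSO libraries, as for 18.5% of genes that reached an FPKM of 1 in any library. The interval of the melatonin 48 h library (2.07 to 3.54) overlapped that of the DMSO 24 h library (2.40 to 4.15). The log2 fold changes of SLC51B were -0.39 at 24 h and -1.26 at 48 h. From DMSO 24 h to DMSO 48 h SLC51B rose (log2 fold change 1.10), a comparison that shares the DMSO 48 h library with the fall. SLC51B shares 61 exon bases with RASL12 on the opposite strand, which had 1 to 4 reads per library. SLC51A was at 1.68, 1.19, 0.982 and 0.732 FPKM (24 h DMSO, 24 h melatonin, 48 h DMSO, 48 h melatonin), and did not reach the threshold. Both the core motif and the inverted repeat with up to 2 mismatches were held by the promoters of APOC2, SLC10A1, SLCO1B3 and SLC51B. The SLC51B promoter is shown as that of a gene that fell, and its core motif lies within its inverted repeat. The window is chr15:65045137-65045386 on the plus strand (RefSeq, GRCh38.p14), and the capitals mark the inverted repeat with up to 2 mismatches, which starts with AGGTCA, 54 to 42 bases before the start.
SLC51B: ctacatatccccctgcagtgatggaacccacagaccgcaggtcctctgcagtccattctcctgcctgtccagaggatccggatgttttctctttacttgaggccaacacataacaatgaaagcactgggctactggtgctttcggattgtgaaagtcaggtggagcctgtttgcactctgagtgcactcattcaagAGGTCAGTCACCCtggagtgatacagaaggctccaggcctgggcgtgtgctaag

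Among genes for the conjugation and clearance of bile acids 1 fell at 24 h (SULT2A1) and 3 fell at 48 h (SULT2A1, UGT2B4 and UGT2B7). The list held 7 genes, of which 5 could be tested at 24 h and 4 at 48 h, and 0 rose. The shares of all genes tested that fell were 2.93% and 3.32%, and those that rose were 1.42% and 2.39%. Over the 4 genes with a mean FPKM of at least 1 (SLC27A5, SULT2A1, UGT2B4 and UGT2B7) the median log2 fold change was -0.59 at 24 h and -1.31 at 48 h. Over all genes by that filter it was 0.03 and -0.01. CYP3A4 and UGT1A3 stayed under an FPKM of 1 in every library. SULT2A1, which adds sulfate to bile acids and steroids, had an FPKM of 27.1 (DMSO) and 11.3 (melatonin) at 24 h, and of 43.3 (DMSO) and 17.1 (melatonin) at 48 h. Each melatonin library lay below both DMSO libraries, as for 18.5% of genes that reached an FPKM of 1 in any library. SULT2A1 was the gene of all these lists that fell at both times (log2 fold changes -1.19 and -1.29). Its promoter window, chr19:47886316-47886565 on the minus strand (RefSeq, GRCh38.p14), is shown for comparison and held neither motif.
SULT2A1: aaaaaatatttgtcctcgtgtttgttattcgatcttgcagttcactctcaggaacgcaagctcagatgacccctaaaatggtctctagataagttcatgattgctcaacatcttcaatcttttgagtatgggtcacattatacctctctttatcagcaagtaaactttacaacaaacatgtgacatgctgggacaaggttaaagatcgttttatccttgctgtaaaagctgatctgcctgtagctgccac

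The glucuronosyltransferases UGT2B7 and UGT2B4, which make bile acids and steroids soluble, fell at 48 h. UGT2B7 had an FPKM of 12.3 (DMSO) and 6.77 (melatonin) at 24 h, and of 14.1 (DMSO) and 4.27 (melatonin) at 48 h, with log2 fold changes of -0.78 and -1.52. For UGT2B7 the melatonin libraries both lay below the DMSO libraries, as for 18.5% of genes that reached an FPKM of 1 in any library. UGT2B4 had an FPKM of 2.15 and 1.40 at 24 h, and of 7.06 and 2.21 at 48 h, with log2 fold changes of -0.40 and -1.33. For UGT2B4 the DMSO 48 h library stood high, as it did for MAFG, and the gene rose from DMSO 24 h to DMSO 48 h (1.35). These genes belong to a family with similar sequences, so the split of reads between them may be uncertain, which was not tested. BAAT, which joins bile acids to glycine or taurine, was at 1.08 and 0.305 FPKM at 24 h and at 1.76 and 0.757 FPKM at 48 h. BAAT was 3.53-fold lower (2.13 to 6.06) and 2.33-fold lower (1.69 to 3.23) with melatonin by plain ratio, and -0.67 and -0.65 on the log2(FPKM + 1) scale, under the threshold. SLC27A5, the bile acid ligase that acts before BAAT, was at 1.41 and 1.13 FPKM at 24 h and at 0.994 and 0.730 FPKM at 48 h.

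Of 22 genes listed as targets of FXR 17 could be tested at 24 h and 14 at 48 h. At 24 h NR0B2 rose and SULT2A1 fell, beside 1.42% and 2.93% of all genes tested. At 48 h 0 rose and 4 fell (MAFG, SLC51B, SULT2A1 and UGT2B4), beside 2.39% and 3.32%. The lists overlap, and each of these calls was already counted in a list above, so they are no separate finding. For MAFG, SLC51B and UGT2B4 the DMSO 48 h library stood high. The mean FPKM was at least 1 for 15 of them, among which NR0B2 was the 1 gene with both melatonin libraries above both DMSO libraries (18.7% of all genes by this filter). Both lay below for 5 of the 15 (ABCC2, APOC2, C3, SLC51B and SULT2A1), beside 18.1% of all genes. For APOC2 and SLC51B the intervals of the melatonin 48 h and DMSO 24 h libraries overlapped, so their order was within counting error. APOC2 had 27 to 50 reads per library. Without NR0B2, 10 of the other 14 had a negative log2 fold change at 24 h and 11 of 14 at 48 h. Over all genes by this filter 45.9% and 51.9% were negative. The medians of the 14 were -0.18 and -0.29, beside 0.03 and -0.01 over all these genes. A RefSeq promoter entry was found for 17 of the 22 targets, with 22 promoters in all. Of these promoters 6 held the core motif, beside 12.1% of all promoters, and 4 held the inverted repeat with up to 2 mismatches, beside 0.945%.

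**Figure D4:**
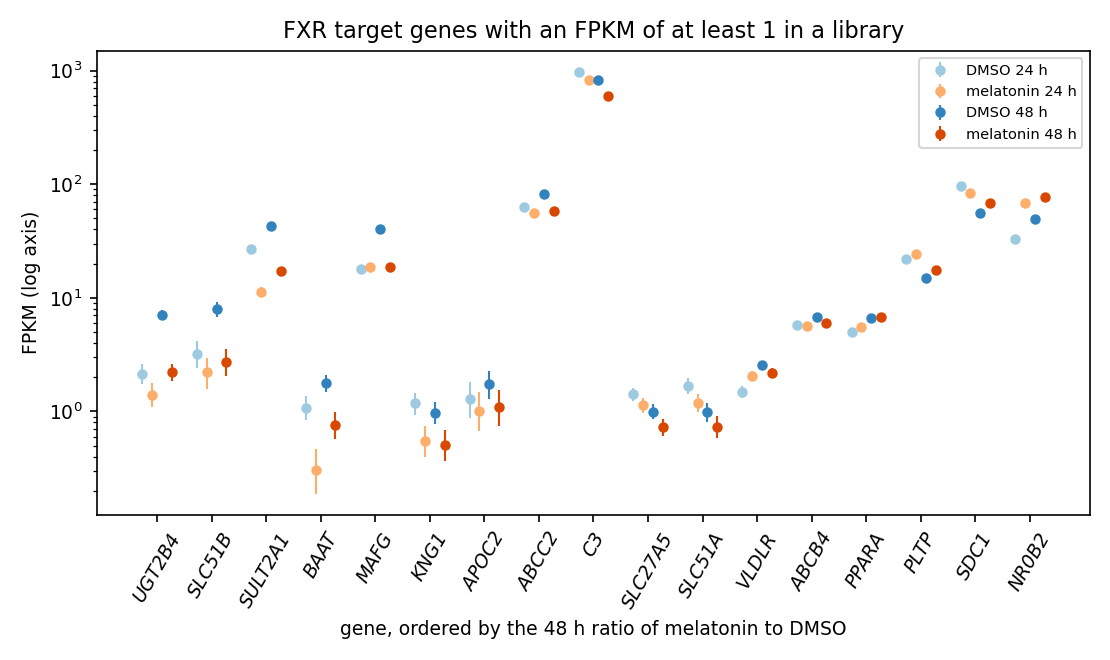
FPKM on a log axis, with 95% Poisson intervals, of the 17 listed FXR target genes that reached an FPKM of 1 in a library, ordered from the lowest to the highest ratio of melatonin to DMSO at 48 h. NR0B2, at the right end, is the 1 target with both melatonin libraries above both DMSO libraries, and for UGT2B4, SLC51B and MAFG the DMSO 48 h library stands high.

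Over all the bile acid lists together, 72 genes with the 10 genes of the set among them, 48 could be tested at 24 h, of which 1 rose and 2 fell, beside 1.42% and 2.93% of all genes tested. At 48 h 46 could be tested, of which 0 rose and 7 fell, beside 2.39% and 3.32%. Leaving out the 10 genes, 0 of 44 rose and 2 fell at 24 h, and 0 of 42 rose and 6 fell at 48 h. Over the 42 of these with a mean FPKM of at least 1 the median log2 fold change was -0.06 at 24 h and -0.16 at 48 h, beside 0.03 and -0.01 over all genes by that filter.

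Between the times none of the 4 testable genes of the set changed within either treatment. From 24 h to 48 h 7.74% of 13854 genes changed with DMSO and 4.15% of 13489 genes with melatonin, in either direction. NR0B2 had a log2 fold change over time of 0.57 with DMSO and 0.17 with melatonin, and NR1H4 of 0.18 and -0.36. FGFR4 had -0.43 with DMSO and -0.62 with melatonin, and CYP27A1 had -0.32 and -0.80. These comparisons use the same 4 libraries as those of melatonin against DMSO, so they add no separate measurement.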

How the data were processed

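RNA was taken from HepG2 cells with DMSO or melatonin, and each of the 4 groups, set by the labels, held 1 library. The authors deposited FPKM per Ensembl gene on hg38, with the gene length beside each value. The study's methods name MapSplice and Cufflinks, and the submitters' processing notes name Bowtie2 2.0.6, TopHat2 2.0.9, Cufflinks 2.1.1 and Cuffdiff 2.1.1, so the aligner behind the values is not settled. How the library sizes were set is not given in the sources used here.

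FPKM times gene length was a whole multiple of 1 step per library for 100% of values above 0 (tolerance 0.01 read), which gave the reads behind each value, used for 95% exact Poisson intervals of levels, 95% exact binomial intervals of ratios and a floor of 3 reads. Reads are not independent molecules. Fold changes were log2((FPKM + 1)/(FPKM + 1)), a pseudocount of 1, for genes reaching an FPKM of 1 in one or both libraries, called at 2-fold. This scale understates the change of low genes. No p-value is given for a condition. The binomial test listed below compares the reads of 2 libraries and covers counting error only. The 10 genes and all gene lists were chosen with earlier results of these data known. Named genes were the 10 genes, listed genes past 2-fold and fixed partners of the 10. The scripts were tested on simulated data and used Python 3.11, numpy 2.4.6, pandas 2.3.3 and scipy 1.17.1. Alternatives were another pseudocount, filter (a mean FPKM of at least 1 was added after seeing the data), threshold, scaling or gene class, and a binomial test of the reads of 2 libraries.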

Additional observations from a re-analysis of the deposited data

Results flagged for a closer look

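A few genes had ratios of melatonin to DMSO on opposite sides of 1 at 24 h and at 48 h, each with a counting interval that excluded 1. The difference between the times was not tested, since there is 1 library per condition. The intervals cover counting error only and leave out scaling and the spread between cultures. How many of all genes show this pattern was not counted, so it is not known to be unusual. FGFR4 had a ratio of 1.09 at 24 h (1.06 to 1.12) and 0.946 at 48 h (0.918 to 0.976). SLC10A1 had 0.278 at 24 h (0.0661 to 0.901) and 2.68 at 48 h (1.08 to 7.55), on at most 19 reads in a library. HNF4A had 0.903 at 24 h (0.875 to 0.931) and 1.26 at 48 h (1.21 to 1.30), and its 24 h difference changed sign on rescaling to TPM.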

How the results depend on the processing

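No paired analysis was possible because each group has 1 library and the labels give no replicate numbers. Melatonin and DMSO were compared within each time. For the 10 genes, the count changed at 24 h (1) became 2 with a pseudocount of 0.1 or a 1.5-fold threshold (NR1H4 added), and 3 with TPM without mitochondrial genes (CYP8B1 too). At 48 h (1) it became 2 at 1.5-fold (NR0B2 added) or with TPM (CYP8B1 added), and 3 with TPM without mitochondrial genes (CYP8B1 and FGF19 added). Over time it became 1 with TPM for DMSO (0, NR0B2 added), and for melatonin (0) 2 at 1.5-fold (CYP27A1 and FGFR4) and 1 with TPM without mitochondrial genes (SLC10A1). The wider lists at 24 h (3) gave 6 with a pseudocount of 0.1, 8 at 1.5-fold and 7 with TPM without mitochondrial genes, and at 48 h (7) they gave 6 to 10. TPM values run higher than FPKM, so more genes passed the filter. Of 10 called values of named genes 0 changed sign. NR0B2 at 24 h ranged from 1.00 to 1.21 and NR1H4 at 48 h from -1.70 to -1.48, while AKR1D1 at 24 h (-1.26 to -0.95) and KLB at 48 h (-1.09 to -0.97) fell short of the threshold under some scalings. Over all genes the calls ranged from 66 to 2873 at 24 h (591 as reported), from 253 to 3412 at 48 h (789), from 467 to 3894 for DMSO over time (1072) and from 97 to 2784 for melatonin over time (560). TPM shifted the median log2 fold change of all genes by 0.15 at 24 h, 0.46 for DMSO over time and 0.27 for melatonin over time. The higher and lower calls became 715 and 846 in place of 193 and 398 at 24 h, 2947 and 704 in place of 485 and 587 for DMSO over time, and 1520 and 565 in place of 330 and 230 for melatonin over time. The plain sum of reads gave 609 and 376 for DMSO over time. Depth limits the 6 scarce genes, with at most 70 reads in a library.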

Other observations

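The profile of NR0B2 over the 4 libraries was compared with that of 5496 protein-coding genes that reached an FPKM of 5 in every library, by the Euclidean distance between centred log2(FPKM + 1) values. The nearest was DUSP6, a phosphatase of the ERK kinases, at a distance of 0.137, beside a median distance of 1.01 over all these genes. DUSP6 had an FPKM of 11.2 (DMSO) and 21.6 (melatonin) at 24 h, and of 15.0 (DMSO) and 24.2 (melatonin) at 48 h. The next were CIRBP (0.302), GRAMD1A (0.312), SLC23A2 (0.321) and SCPEP1 (0.328). With 4 libraries this is a description only.

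PPARGC1A, a coactivator that can raise CYP7A1 and that was picked after its values were seen, had an FPKM of 2.41 (DMSO) and 5.54 (melatonin) at 24 h, and of 6.53 and 9.44 at 48 h. Its log2 fold change with melatonin was 0.94 at 24 h and 0.47 at 48 h, under the threshold, and it rose from DMSO 24 h to DMSO 48 h (1.14).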
